A study of Homo sapiens with 6 samples.

Results

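Ribosome biogenesis is the building of ribosomes in the nucleolus, where RNA polymerase I transcribes the ribosomal RNA precursor and a large set of assembly factors folds, modifies and cuts it. The small-subunit processome, which includes the UTP-A and UTP-B complexes, forms on the nascent precursor, small nucleolar ribonucleoproteins (snoRNPs) guide its methylation and pseudouridylation, and other factors, among them the PeBoW complex, mature the large subunit. Many of these genes are known targets of MYC, and their activity is often raised in growing tumour cells.

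The set described here holds 50 protein-coding genes of this pathway, taken by gene symbol from a table of 46427 genes, and all 50 were found. By known role, 9 belong to RNA polymerase I transcription and the nucleolar scaffold, 5 are core proteins of snoRNPs, 6 are members of the UTP-A complex and 3 of the UTP-B complex, 11 are other small-subunit factors, 3 form the PeBoW complex and 13 are other large-subunit factors. NOL6 is placed among the other small-subunit factors. The study picked NOL6 from these same libraries, so it is not independent evidence of the direction of the set.

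RNA-seq was done on 3 human non-small cell lung cancer (NSCLC) cell lines, H460, H1299, and A549, to find genes that differ after knockdown of MALAT1, an abundant nuclear long noncoding RNA. Each cell line gave 1 control library and 1 library of cells transfected with siMALAT1, a small interfering RNA against MALAT1, so that there were 3 control and 3 siMALAT1 libraries. The labels give the controls as tumor genotype without treatment, while the methods describe both untransfected and si-Control cells and do not say which were sequenced, so transfection itself and loss of MALAT1 cannot be told apart here. The labels give no sequence of the siRNA. In RNA of bulk cultures, a lower level in every cell and a smaller share of cells with the RNA cannot be told apart.

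The libraries held 42506818 to 68515992 counted reads, with the 2 A549 libraries the shallowest. Every member was well covered, with 336 to 110778 reads per library, and all 50 passed the filters used below. MALAT1 was lower in the siMALAT1 library of each cell line, and its log2 fold changes were -2.96 (H1299), -2.84 (A549) and -2.32 (H460). The epithelial keratin genes KRT8 and KRT18 were read in all 6 libraries, while the epithelial markers EPCAM and CDH1 were at or below 0.776 TPM, a level scaled for transcript length and library depth, in H460 and H1299. CDKN2A had 0 reads in H460 and A549, lines known to lack it. Of 5 markers of other cell types, PTPRC and CD3E had 0 reads in every library, and the summed level of the 5 was 0.129 to 1.36 TPM in the control and 0.504 to 2.12 TPM in the siMALAT1 libraries, most of it COL1A1; the part of this in the results below was not tested.

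Most members were lower after siMALAT1, by modest amounts that differed between the cell lines. The log2 fold change of each gene was taken within a cell line as siMALAT1 minus control, on read counts scaled by size factors (the relative log expression method, RLE) with 1 added. Its median over the 50 members was -0.11 in H460, -0.36 in H1299 and -0.20 in A549, where the median over all 17834 genes with reads in every library was 0.02, 0.02 and 0.01. The value was below 0 for 38 members in H460, 45 in H1299 and 43 in A549, against 48.1%, 48.1% and 49.3% of all genes. A total of 33 members, or 66.0%, were lower in all 3 cell lines, where the share of all genes was 18.8%. Only PWP1 and NOC4L were higher in all 3, against 3813 of the 17834 genes. The lowest of the 3 values was that of H1299 for 32 members, that of A549 for 14 and that of H460 for 4.

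**Figure D1:**
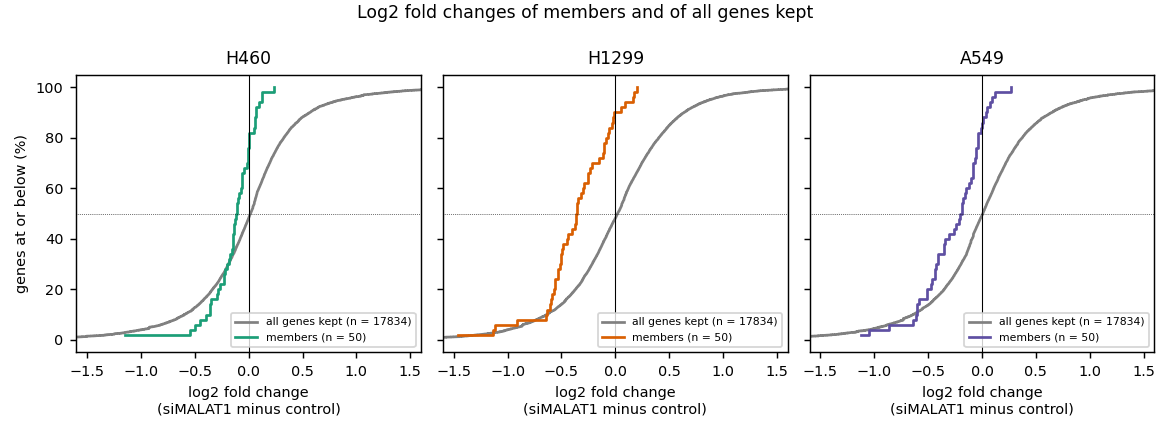
Cumulative share of genes (y axis, percent) at or below each log2 fold change (x axis, siMALAT1 minus control) in the 3 cell lines, for the 50 members in colour and for all 17834 genes kept in grey. The members' curve reaches 50% at -0.11 in H460, -0.36 in H1299 and -0.20 in A549, left of the grey curve, while no member lies past 0.27 on the right.

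Large differences were uncommon. A threshold of 1.5-fold (0.58 in log2 units) was passed downward by 1 member in H460 and by 8 members each in H1299 and A549, against 10.3%, 11.4% and 11.4% of all genes, so the share of members past it was below the background in H460 and above it in the other lines. No member passed it upward, against 9.5%, 11.7% and 11.5% of all genes. In H460 the member was NOL6. In H1299 the members were NOL6, LYAR, NIP7, RRP9, NOC3L, MRTO4, NOP14 and NOP56, and in A549 they were NOL6, LYAR, NIP7, RRP9, BOP1, HEATR1, PWP2 and RRP1B. NOL6 alone passed in all 3 cell lines (background 1.28%), and LYAR, NIP7 and RRP9 passed in 2. With 1 library per cell line and condition, these values have no replicate check. All genes kept include ones with far fewer reads than any member, and the shares were not matched for read count. The SD of log2 fold changes over all genes was 0.56, 0.57 and 0.61 in H460, H1299 and A549. Over the members it was 0.22, 0.33 and 0.29. On log2(TPM + 1) in place of scaled counts, 3 members passed downward in H460, 4 in H1299 and 6 in A549, against 4.5%, 4.36% and 5.02% of all genes on that scale, so that in H460 the share of members was then above the background.

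The 3 cell lines together allow a test, in which each siMALAT1 library is paired with the control of its own line. In edgeR's quasi-likelihood test with Benjamini-Hochberg adjustment over 19122 genes, 0 of the 50 members had an adjusted p under 0.05 (background 0.00523%, which is MALAT1 alone). At an unadjusted p under 0.05, 22 members were lower, against 7.59% of all genes, and 0 were higher, against 7.38%. This count was 20 without H460 (background 7.41%), 13 without H1299 (background 7.13%), 6 without A549 (background 2.77%) and 2 without the replicate block (background 0.607%), all lower. DESeq2 on the same pairs called 10 members lower, against 4.86% of all genes: NOL6, HEATR1, EBNA1BP2, NIP7, NOP2, DDX10, RRP12, UTP15, LYAR and NOP14. Without the 2 H460 libraries, edgeR called NOL6, LYAR and NIP7 lower, against 0.549% of all genes. The edgeR test rests on 2 residual degrees of freedom, and the samples are single cultures. The spread it measures is that of the siMALAT1 difference between the cell lines, which cannot be told apart from variation between cultures.

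**Figure D2:**
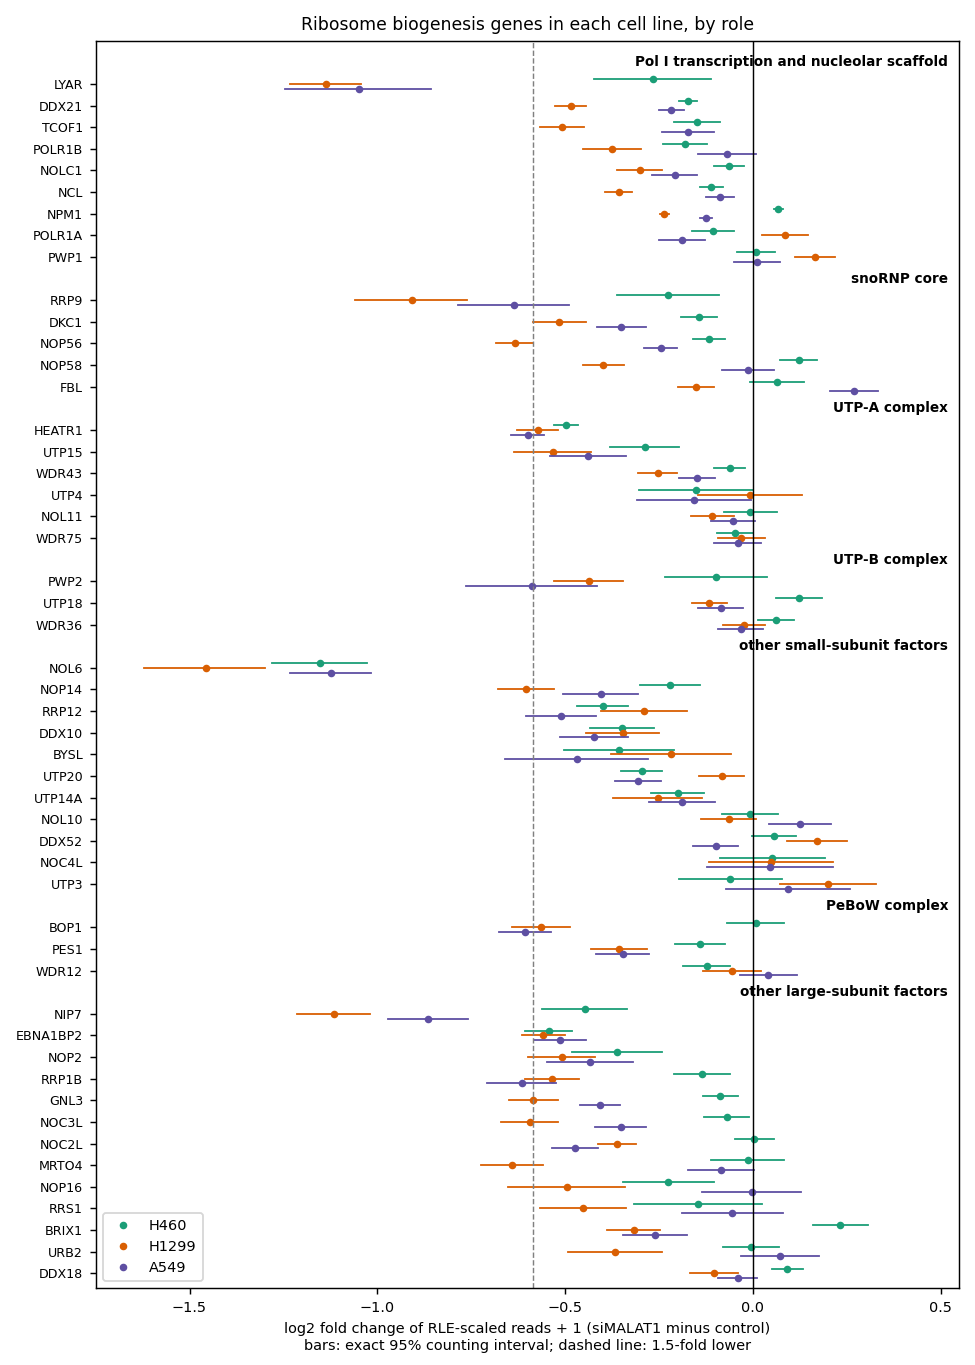
Log2 fold change (x axis, siMALAT1 minus control, RLE-scaled reads plus 1) of each of the 50 members (y axis, grouped by role and ordered by mean) in H460, H1299 and A549. Bars are exact 95% intervals that cover counting error only, the dashed line marks 1.5-fold lower, and NOL6 is the member left of it in every cell line.

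Among the other small-subunit factors, NOL6 had the lowest values of the set. NOL6 (Gene ID 65083, chr9:33460811-33473943, minus strand, GRCh38) is the human counterpart of yeast Utp22, a protein of the small-subunit processome. Its counts, control against siMALAT1 as in all pairs given below, were 1701 against 723 reads in H460, 1270 against 422 in H1299, and 2043 against 1036 in A549. The control was higher than the siMALAT1 library in each line. The libraries differ in depth, so whether the control and siMALAT1 groups overlap is told here and below from TPM. Its levels were 5.81 against 2.44 TPM in H460, 4.28 against 1.56 TPM in H1299, and 11.7 against 5.31 TPM in A549, so the A549 siMALAT1 level exceeded the H1299 control level and the groups overlapped. The log2 fold changes were -1.15, -1.46 and -1.12 in H460, H1299 and A549, a mean of -1.24 ± 0.18 (SD over 3 lines), with an edgeR adjusted p of 0.0734, which ranged from 3.35e-12 with DESeq2 to 1.0 without the pairing.

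Of the remaining 10 small-subunit factors, 6 were lower in all 3 lines, by less than NOL6, and NOC4L, at 0.05 in each line, was higher. RRP12, which takes part in maturation and export of the small subunit, had 4230 against 3031 reads in H460, 1444 against 1079 in H1299, and 2107 against 1635 in A549. DDX10, an RNA helicase of the small-subunit processome, had 2623 against 1946 reads in H460, 2084 against 1497 in H1299, and 2201 against 1815 in A549. Both were lower in every pair, and the control and siMALAT1 groups overlapped in TPM for both (for DDX10, 11.2 TPM in the H1299 control and 14.5 TPM in the A549 siMALAT1 library). The mean log2 fold change was -0.40 ± 0.11 for RRP12 (SD over 3 lines, edgeR adjusted p = 0.173) and -0.37 ± 0.04 for DDX10 (edgeR adjusted p = 0.176). UTP14A, which acts with a helicase at the processome, had 3529 against 2903 reads in H460, 1360 against 1042 in H1299, and 2173 against 2108 in A549, and a mean log2 fold change of -0.21 ± 0.03. Its values were close between the lines, but UTP14A has a near-identical retrogene copy, UTP14C, so its reads are uncertain. NOL10 had the highest mean level of these 11 genes at 18.1 TPM. Its counts were 2986 against 2808 in H460, 3222 against 2815 in H1299, and 2199 against 2651 in A549. After scaling, NOL10 was near 0 in H460 and H1299 (log2 fold changes -0.01 and -0.06) and higher in A549 (0.12). In the group as a whole, 7 of 11 were lower in all 3 lines, and the median log2 fold change was -0.22 in H460, -0.22 in H1299 and -0.31 in A549. BYSL, UTP20 and NOP14 were also lower in every line, at -0.08 to -0.60, whereas UTP3 and DDX52 were mixed.

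The UTP-A complex binds the start of the ribosomal RNA precursor and is linked to its transcription. All 6 of its members had values below 0 in all 3 lines, though several values were near 0. HEATR1, the human counterpart of yeast Utp10, had 19901 against 13331 reads in H460, 7411 against 4548 in H1299, and 9717 against 7090 in A549. The siMALAT1 library was the lower in each pair, but the groups overlapped in TPM. The H1299 control was at 15.2 TPM, below the siMALAT1 libraries of H460 (26.0) and A549 (21.5). The log2 fold changes were -0.50, -0.57 and -0.60, a mean of -0.56 ± 0.05 (edgeR adjusted p = 0.107). Of the HEATR1 exon bases, 24.8% overlap LGALS8 on the opposite strand, and whether the counting used the strand is not given in the sources used here. UTP15 had 2264 against 1752 reads in H460, 1992 against 1257 in H1299, and 1783 against 1454 in A549. UTP15 was lower in each pair, its groups overlapped in TPM (6.74 in the H1299 control, 7.27 in the A549 siMALAT1 library), and the mean log2 fold change was -0.42 ± 0.12 (edgeR adjusted p = 0.171). WDR43, the most abundant UTP-A gene with a mean of 44.1 TPM, had 9637 against 8725 reads in H460, 6898 against 5284 in H1299, and 7278 against 7260 in A549, with log2 fold changes of -0.06, -0.25 and -0.15. UTP4, NOL11 and WDR75 were within 0.16 of 0 in each line.

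The UTP-B complex, a partner of UTP-A in the processome, showed smaller differences. PWP2, a scaffold protein of the complex, had 951 against 840 reads in H460, 2363 against 1593 in H1299, and 640 against 470 in A549. It was lower in each line, with log2 fold changes of -0.10, -0.44 and -0.59 (edgeR adjusted p = 0.279). Its groups overlapped in TPM (5.18 in the H460 control, 10.0 in the H1299 siMALAT1 library). UTP18 had 4164 against 4286 reads in H460, 8267 against 6968 in H1299, and 4313 against 4493 in A549. After scaling its log2 fold changes were 0.12, -0.12 and -0.09, and those of WDR36 were 0.06, -0.02 and -0.03.

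Of the snoRNP core proteins, RRP9 was the lowest and FBL did not share the direction. RRP9, a protein particular to the U3 snoRNP that is needed for the first cuts of the precursor, had 995 against 804 reads in H460, 1119 against 544 in H1299, and 896 against 637 in A549. All 3 siMALAT1 libraries were below all 3 controls, also in TPM, where the highest siMALAT1 level was 10.6 and the lowest control level 11.1. Its log2 fold changes were -0.23, -0.91 and -0.64, a mean of -0.59 ± 0.34 (edgeR adjusted p = 0.183). FBL, the methyltransferase fibrillarin, had 3106 against 3069 reads in H460, 7727 against 6349 in H1299, and 3529 against 4702 in A549, with log2 fold changes of 0.06, -0.15 and 0.27. FBL was thus higher after siMALAT1 in A549 and lower in H1299. NOP56 and NOP58, which sit with FBL in box C/D snoRNPs, had -0.12, -0.63 and -0.24, and 0.12, -0.40 and -0.01. DKC1, the pseudouridine synthase of box H/ACA snoRNPs, was lower in each line at -0.14, -0.52 and -0.35. All 5 core proteins had their lowest value in H1299.

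Among the large-subunit factors, NIP7 and EBNA1BP2 had the smallest p-values. NIP7, which takes part in processing of the precursor, had 1552 against 1075 reads in H460, 2925 against 1232 in H1299, and 1921 against 1166 in A549. NIP7 was lower in each pair, and the groups overlapped in TPM (12.9 in the H460 control, 14.5 in the A549 siMALAT1 library). The log2 fold changes were -0.45, -1.12 and -0.86, a mean of -0.81 ± 0.34 (edgeR adjusted p = 0.107). EBNA1BP2, the counterpart of yeast Ebp2, had 5131 against 3326 reads in H460, 6402 against 3971 in H1299, and 3882 against 3006 in A549. In TPM the groups did not overlap, with 65.1 in the lowest control and 57.4 in the highest siMALAT1 library, while the unscaled counts of the A549 control and the H1299 siMALAT1 library did. Its log2 fold changes of -0.54, -0.56 and -0.51 were almost the same in the 3 lines, a mean of -0.54 ± 0.02 (edgeR adjusted p = 0.106). NOP2, a methyltransferase of the large-subunit RNA, had 1342 against 987 reads in H460, 2600 against 1669 in H1299, and 1394 against 1141 in A549, a mean log2 fold change of -0.43 ± 0.07 (edgeR adjusted p = 0.155). NOP2 was lower in each pair, and its groups overlapped in TPM. The H460 control was at 8.57 TPM, below the siMALAT1 libraries of H1299 (12.4) and A549 (10.9).

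As a group, the 13 large-subunit factors outside the PeBoW complex had their lowest median in H1299. All 13 were lower in H1299, 12 in A549 and 10 in H460, with medians of -0.51, -0.35 and -0.09. GNL3, the GTPase nucleostemin, had log2 fold changes of -0.09, -0.58 and -0.41 in H460, H1299 and A549. MRTO4, which has a part in placing the ribosomal stalk, had -0.01, -0.64 and -0.08, so its difference lay in H1299. RRP1B had -0.14, -0.53 and -0.62. BRIX1 had the highest value of the 50 members in H460, 0.23, against -0.32 in H1299 and -0.26 in A549.

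The PeBoW complex of PES1, BOP1 and WDR12 is needed for processing of the large-subunit RNA. PES1 had 3926 against 3368 reads in H460, 3465 against 2472 in H1299, and 3501 against 3045 in A549. PES1 was lower in each pair, its groups overlapped in TPM (25.9 in the H1299 control, 33.8 in the A549 siMALAT1 library), and its log2 fold changes were -0.14, -0.36 and -0.35 (edgeR adjusted p = 0.285). BOP1 had 2893 against 2749 reads in H460, 3585 against 2215 in H1299, and 3961 against 2875 in A549. It was level in H460 (log2 fold change 0.01, 95% counting interval -0.07 to 0.08) and lower in H1299 (-0.56) and A549 (-0.61). WDR12 was at -0.12, -0.06 and 0.04, so the 3 partners of the complex did not move alike.

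In the group of RNA polymerase I transcription and the nucleolar scaffold, LYAR had the lowest value. LYAR, a zinc finger protein of the nucleolus linked to transcription of ribosomal RNA genes, had 766 against 602 reads in H460, 3047 against 1265 in H1299, and 630 against 336 in A549. It was lower in each pair, and its groups overlapped in TPM (8.44 in the H460 control, 16.2 in the H1299 siMALAT1 library). The log2 fold changes were -0.27, -1.14 and -1.05, a mean of -0.82 ± 0.48 (edgeR adjusted p = 0.149). DDX21, an RNA helicase of the nucleolus, had 31814 against 26684 reads in H460, 12334 against 8047 in H1299, and 15210 against 14469 in A549, and log2 fold changes of -0.17, -0.49 and -0.22. NPM1, the chaperone nucleophosmin, had 110778 against 109675 reads in H460, 106396 against 82532 in H1299, and 61164 against 62066 in A549, with log2 fold changes of 0.07, -0.24 and -0.12. NPM1 was the most abundant member by far and has processed pseudogenes, so its count is uncertain. TCOF1, NOLC1 and NCL were lower in each line, at -0.06 to -0.51. The catalytic subunits of RNA polymerase I did not move together: POLR1B was at -0.18, -0.37 and -0.07, and POLR1A at -0.11, 0.09 and -0.19.

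**Figure D3:**
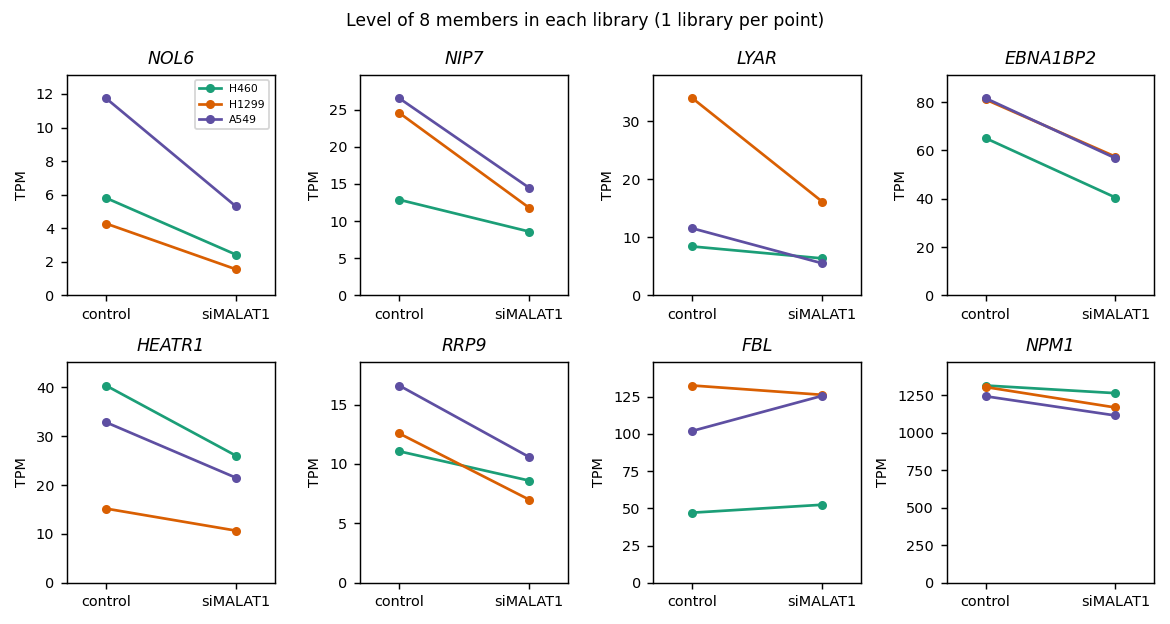
Level in TPM (y axis, from 0) of 8 members in the control and siMALAT1 library of each cell line (x axis); each point is 1 library and lines join the pair. NOL6, NIP7, LYAR, EBNA1BP2, HEATR1 and RRP9 are lower after siMALAT1 in all 3 pairs, while FBL goes from 102 to 126 TPM in A549 and NPM1 lies between 1116 and 1316 TPM in all 6 libraries.

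Per transcript length and depth, the members spanned a wide range. The median member was at 14.3 to 25.6 TPM over the 6 libraries. NPM1 made up 42.7% to 52.0% of the summed TPM of the set. Without NPM1, the summed level was 1369 TPM in the H460 control and 1167 TPM after siMALAT1, 1319 against 1078 TPM in H1299, and 1669 against 1435 TPM in A549. The sum was therefore lower in each pair, and the A549 siMALAT1 library was above the controls of the other 2 lines. The sums of all 7 role groups, in TPM, were also lower in each pair. The median log2(TPM + 1) change over all genes was itself -0.07 for H460, while it was 0.04 for H1299 and 0.002 for A549. Relative to scaled counts, the median shift over all genes in H460 was -0.13. The small falls of 3 sums in H460 therefore cannot be told apart from the scale. They were those of UTP-B (62.1 against 60.2 TPM), the snoRNP core (250 against 230 TPM), and RNA polymerase I transcription and scaffold (1653 against 1549 TPM). NPM1, in the last group, was at 0.07 in H460 on scaled counts. On the same counts, 2 of the 3 UTP-B members were higher in that line, with a group median of 0.06.

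The same pathway was followed in 121 further genes assigned to it by known role. Of these, 48, or 39.7%, were lower in all 3 lines, against 18.8% of all genes. A further 12 were higher in all 3, against 3813 of all 17834 genes kept. In the paired edgeR test 0 of 121 were called (background 0.00523%). At an unadjusted p under 0.05 in that test, 26 were lower (background 7.59%) and 2 were higher (background 7.38%). The medians were -0.04 in H460, -0.19 in H1299 and -0.13 in A549, nearer to 0 than those of the members in each line. Of 39 further small-subunit factors 15 were lower in all 3 lines, of 44 large-subunit factors 17, of 12 RNA polymerase I factors 6, of 12 snoRNP factors 5, and of 14 exosome genes 5. EXOSC5, a subunit of the RNA exosome that trims ribosomal RNA, was the 1 gene of the 121 past 1.5-fold in the same direction in every line. Of all genes, 1.28% were that much lower in every line, so this count was not above the background. It had 654 against 316 reads in H460, 1211 against 304 in H1299, and 1291 against 332 in A549, and its groups did not overlap in TPM either (lowest control 11.2, highest siMALAT1 8.54). Its log2 fold changes were -0.97, -1.86 and -2.10 (edgeR adjusted p = 0.0762).

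The level of members was also compared between the cell lines. In edgeR's quasi-likelihood F test of the cell line, which allows for the treatment and uses 2 libraries per line, 37 of 50 members (74.0%) had an adjusted p under 0.05, against 64.3% of all genes, a share near the background. Between H1299 and H460, 7 members were higher in H1299 (background 26%) and 28 were lower (background 26.6%), with a median log2 difference of -0.49. Between A549 and H1299, 27 members were higher in A549 (background 24.4%) and 2 were lower (background 24.5%), with a median of 0.55. Between A549 and H460, 9 were higher in A549 (background 18.9%) and 8 lower (background 19.3%), with a median of -0.04. H1299 had the lowest mean TPM for 29 members, H460 for 19 and A549 for 2. The tests used scaled counts and these ranks use TPM, so the order of lines can differ between them. The number called by the F test was 23 without the A549 control library (background 48.5%) and 24 without the A549 siMALAT1 library (background 49.9%).

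**Figure D4:**
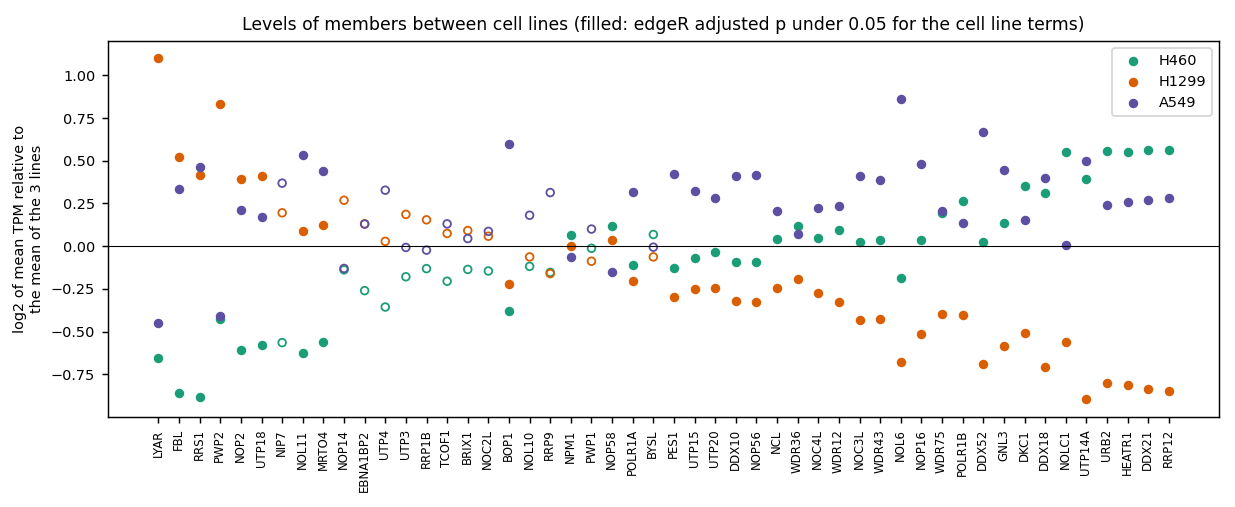
Mean TPM of the 2 libraries of each cell line, on a log2 scale relative to the mean of the 3 lines (y axis), for the 50 members (x axis, ordered by H460 minus H1299). Filled points mark the 37 members with an edgeR adjusted p under 0.05 for the cell line; H1299 is the lowest line for 29 members, and LYAR, FBL, PWP2, NOP2 and UTP18 are among those highest in H1299.

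The widest ranges ran in different directions. LYAR was highest in H1299, with a mean of 25.1 TPM against 8.55 TPM in A549 and 7.41 TPM in H460, and A549 and H460 did not pass the test against each other (edgeR adjusted p = 0.595). NOL6 was highest in A549, at 8.53 TPM, then H460 at 4.12 TPM and H1299 at 2.92 TPM, and each neighbouring pair passed (edgeR adjusted p = 0.0091 and 0.006). RRP12 and DDX21 shared another order, with 14.2 and 106 TPM in H460, 11.6 and 86.5 TPM in A549, and 5.32 and 40.1 TPM in H1299. UTP14A was at 22.8 TPM in A549 and 21.2 TPM in H460, which did not pass the test against each other (edgeR adjusted p = 0.285), and at 8.65 TPM in H1299. On the scaled counts of the test, A549 was below H460 for LYAR and UTP14A (log2 differences -0.18 and -0.19), the other way from TPM. FBL was lowest in H460, at 49.8 TPM against 114 TPM in A549 and 129 TPM in H1299, and the latter lines did not pass the test against each other (edgeR adjusted p = 0.366). Other members were flat: EBNA1BP2 lay between 52.8 and 69.3 TPM (edgeR adjusted p = 0.666 for the cell line) and BYSL between 7.01 and 7.68 TPM (edgeR adjusted p = 0.0978).

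The promoters of the members had a sequence feature that the choice of genes did not use. Promoter sequence from 250 bases before to 50 bases after the annotated start (RefSeq, GRCh38.p14) was matched by Gene ID for 39 of the 50 members. The letters CACGTG, an E-box that reads the same on both strands and is known as the core of sites for MYC and related factors, were present for 20 of these 39 members, or 51.3%, against 12% of 13366 tested genes and 8.77% of all 27305 genes with a promoter. Members and tested genes had about the same number of CpG steps per promoter (medians 28 and 27). The E-box windows of members whose counts are given above for every library are shown, 5′ to 3′ on the strand of the gene, with CACGTG in capitals, because they show what surrounds the shared letters.
NOL6 (chr9:33473894-33473923, minus strand): ggcatttccgccCACGTGggaagctatgag
RRP9 (chr3:51941892-51941921, minus strand): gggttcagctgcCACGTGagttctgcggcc
LYAR (chr4:4290068-4290097, minus strand): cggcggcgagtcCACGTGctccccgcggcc
NOP2 (chr12:6568242-6568268, minus strand): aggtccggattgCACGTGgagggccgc
PES1 (chr22:30591880-30591909, minus strand): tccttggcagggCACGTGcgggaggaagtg
PWP2 (chr21:44107388-44107417, plus strand): tgagctgcggcaCACGTGcgacggccgtga
WDR43 (chr2:28894658-28894687, plus strand): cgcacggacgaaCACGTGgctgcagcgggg
FBL (chr19:39846356-39846385, minus strand): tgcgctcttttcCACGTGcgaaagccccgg
UTP18, first site (chr17:51260445-51260474, plus strand): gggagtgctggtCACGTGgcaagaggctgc
UTP18, second site (chr17:51260538-51260567, plus strand): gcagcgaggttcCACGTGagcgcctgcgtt
EBNA1BP2, first site (chr1:43172790-43172819, minus strand): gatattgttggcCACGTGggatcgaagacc
EBNA1BP2, second site (chr1:43172241-43172260, minus strand): gcgattcggtggCACGTGga
DDX21 (chr10:68956604-68956633, plus strand): ggccgggtgtccCACGTGgtccccggcgac
UTP14A (chrX:129905914-129905940, plus strand): accttgggcCACGTGgaaaccaggggc

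Relative to the annotated start, the E-box began 13 bases downstream in NOL6, 6 in FBL, 3 in WDR43, 1 in PWP2, 13 in PES1 and 35 in NOP2. Its position was -5 in RRP9, -31 in DDX21, -64 in LYAR and -241 in UTP14A, where negative positions lie upstream, and there were sites at -89 and 4 in UTP18 and at -237 and 42 in EBNA1BP2, the latter pair counted from different annotated starts. In the other 8 members with an E-box it began at -135 in PWP1, -16 in UTP4, -10 in UTP20, 6 in GNL3, 14 in MRTO4, 15 in NOP14, 19 in NOC3L and 28 in BYSL. Some genes have more than 1 annotated start, so that the 39 members had 46 promoter entries. In 10 of these 46 entries, or 21.7%, the letters began 0 to 24 bases after the start, against 0.651% of 19058 entries of tested genes. The members with an E-box had median log2 fold changes of -0.16, -0.46 and -0.35 in H460, H1299 and A549, and the 19 matched members without it had -0.11, -0.35 and -0.12. The printed windows include members that were lower in every line (NOL6, RRP9, LYAR, NOP2, PES1, PWP2, WDR43, EBNA1BP2, DDX21, UTP14A) and members that were not (FBL, UTP18), and HEATR1, NIP7, UTP15 and DDX10 had no CACGTG in this window. A match of letters is a description of the sequence, and no binding was measured. Of 2 other motifs known from promoters, searched on both strands, CTCGCGAGA was in 3 of the 39 members (7.69%, against 1.49% of tested genes) and the palindromic motif of NRF1 in 4 (10.3%, against 2.51%).

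**Figure D5:**
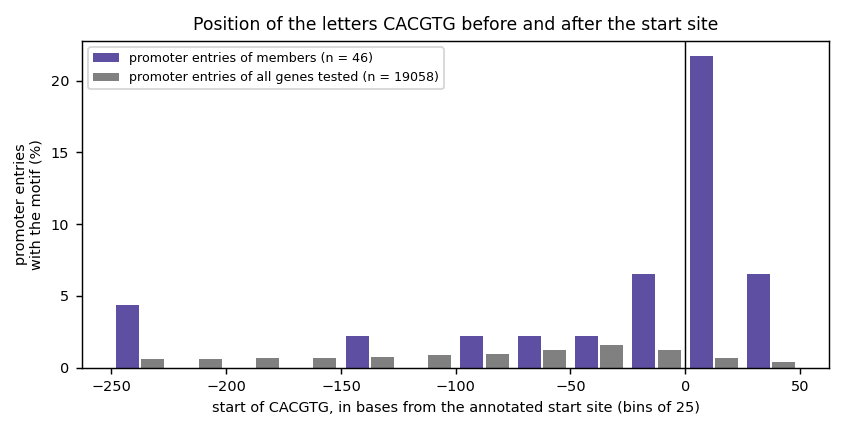
Share of promoter entries (y axis, percent) in which CACGTG begins in each bin of 25 bases (x axis, distance from the annotated start), for the 46 entries of members and the 19058 entries of tested genes. The members' highest bar is at 0 to 24 bases after the start, 21.7% against 0.651%.

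A pair of 7-base words in 3′ untranslated regions (UTRs), TGAATCA and ATGAATC, was singled out in earlier work on these same libraries, so how the members that hold them moved is a description only. On the sense strand of RefSeq 3′ UTRs, either word was present in 5 of 50 members (10.0%), in 16.5% of the 121 further pathway genes and in 19.0% of 13980 tested genes with a curated 3′ UTR. The 5 were NOL6, NIP7, NOP14, UTP15 and POLR1A. Their 3′ UTRs were longer than those of the other members (medians 1459 and 504 bases). The sites are shown with the word in capitals, 5′ to 3′ on the strand of the gene (GRCh38). They are printed because the 5 members had unlike values, from NOL6 to POLR1A.
NOL6, first site (chr9:33462558-33462581, minus strand): ccttggacATGAATCctccatgga
NOL6, second site (chr9:33462521-33462544, minus strand): gaacatgcTGAATCAtctccaaca
NIP7 (chr16:69341880-69341903, plus strand): ttcatattTGAATCAgagggcttc
NOP14 (chr4:2938114-2938137, minus strand): gaaatagaATGAATCctgaaatgc
UTP15 (chr5:73580414-73580437, plus strand): attcaaatATGAATCctctctgga
POLR1A (chr2:86023396-86023419, minus strand): tttgcaccTGAATCAggggctgtc

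NOL6, the lowest member, was the only member with both words. The 5 members had median log2 fold changes of -0.29, -0.60 and -0.44 in H460, H1299 and A549, and the 45 without a word had -0.10, -0.36 and -0.17. Among the 121 further pathway genes, the 20 with a word had -0.17, -0.17 and -0.33 and the others -0.03, -0.20 and -0.10, so that in H1299 the order was the other way. Among all tested genes the medians were -0.11, -0.03 and -0.13 with a word and 0.05, 0.05 and 0.03 without. POLR1A, whose site lies 4012 bases into its 3′ UTR, was at -0.11, 0.09 and -0.19. LYAR, RRP9, HEATR1 and EBNA1BP2, which were among the lowest members, had neither word.

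Small nucleolar RNAs lie in introns of several members, among them GNL3, NOP56, NOP58 and NCL. Their counts were low, at 57 reads or fewer in every library, in a preparation not made for small RNAs. SNORD19B in GNL3, the highest, had 57 against 39 reads in H460, 51 against 21 in H1299, and 31 against 26 in A549. SNORD110 in NOP56 had 29 against 27, 41 against 10, and 38 against 43 reads in the same order. No difference was read from counts this low.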

How the data were processed

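The authors made the 6 libraries from total RNA depleted of ribosomal RNA, with a kit that keeps the strand. Per the labels and the methods, the authors trimmed the reads with Trimmomatic, aligned them to hg38 with HISAT2 2.1.0 and estimated abundance per gene with StringTie (version 1.3.4b in the submitters' processing notes). The deposited read counts are whole numbers without normalization, and the deposited TPM values had been set by the authors relative to transcript length and library depth. The deposited FPKM values were not used, nor were 18 columns of per-sample values that belong to no sample described here.

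Log2 fold changes within a line used RLE size factors over the 6 libraries, a pseudocount of 1 and genes with reads in every library. Intervals are exact (Clopper-Pearson, 95%) for the share of a gene's reads in each of a pair of libraries and cover counting error only. The paired test was edgeR 4.0.16 (glmQLFit, TMM, filterByExpr by treatment) with the cell line as block, and the test between lines used the same fit. Pairing follows from the cell line, and paired libraries deviated together (correlations 0.884 to 0.922). DESeq2 1.42.0, limma 3.58.1 on log2(TPM + 1), other scalings, no low-count filter, no pairing and each line or library left out were alternatives. The scripts were tested on simulated data.

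Members with the count in every library are NOL6, those past 1.5-fold in all lines, the 10 with the smallest p and the same direction in all lines, the largest mean change and the highest mean TPM of each role group, and the 5 widest ranges between lines. Other members are named with fold changes only. Members and lists were chosen with earlier results of these data known. Software was Python 3.11.15 with pandas 2.3.3, numpy 2.4.6, matplotlib 3.10.9 and scipy 1.17.1, and R 4.3.3. Promoters and 3′ UTR annotation are from RefSeq; coordinates were checked on hg38, where 99.8% of 57422 coding sequences ended in a stop codon.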

Additional observations from a re-analysis of the deposited data

Results flagged for a closer look

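For 8 members the log2 fold change had opposite signs in different cell lines with counting intervals that left out 0. These intervals do not cover the choice of scaling, and the share of all genes with such signs was not counted. With 1 library per line and condition, the differences between the lines were not tested. BRIX1 was at 0.23 in H460, -0.32 in H1299 and -0.26 in A549. NPM1 was at 0.067, -0.24 and -0.12, and UTP18 at 0.12, -0.12 and -0.086, in the same order. DDX18 was at 0.092 in H460 and -0.10 in H1299, and NOP58 at 0.12 in H460 and -0.40 in H1299. FBL was at 0.27 in A549 and -0.15 in H1299. DDX52 was at 0.17 in H1299 and -0.099 in A549. POLR1A was at 0.086 in H1299, -0.11 in H460 and -0.19 in A549. H460 was the higher line for 5 of the 8 (BRIX1, DDX18, NOP58, NPM1, UTP18). On log2(TPM + 1), where the median shift over all genes in H460 was -0.13, NPM1 and UTP18 were below 0 in every line. Their H460 values were then -0.057 and -0.005.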

How the results depend on the processing

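The number of members called in the paired test was 0 in edgeR, also with RLE scaling, without a low-count filter, with a filter set by the whole model (chosen after seeing the data), with limma on log2(TPM + 1), and without the replicate block; DESeq2 called 10. Leaving out 1 cell line gave 0 to 3 members called, with 3 only when H460 was left out. The number with an unadjusted p under 0.05 was 22, and 6 to 20 with 1 line left out and 2 without the replicate block. Between cell lines, leaving out 1 library gave 23 to 35 members called, with 23 without the A549 control and 24 without the A549 siMALAT1 library. On log2(TPM + 1), members at least 1.5-fold lower numbered 3 in H460 and 4 in H1299. The median shift over all genes in H460 was -0.13. On that scale some values within a line changed sign. In H460, NPM1 went from 0.067 to -0.057, UTP18 from 0.12 to -0.005, BOP1 from 0.0079 to -0.12 and NOL10 from -0.0071 to 0.041. In H1299, NOL10 went from -0.064 to 0.025. In the paired test the reversals concerned log2 fold changes near 0. NOL10 was at -0.011 without a low-count filter, and with 1 cell line left out it ranged from -0.051 (without A549) to 0.053. With 1 line left out FBL ranged from -0.060 (without A549) to 0.16, and UTP18 from -0.11 to 0.013 (without H1299). The cause was not tested. Of 180 values of the paired test for the 20 members given in every library, 176 kept their direction.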
